A study of Mus musculus with 8 samples.

Results

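The promoters of 35 germline and meiosis genes were examined in neural precursor cells (NPCs) with and without knockdown of *Tet3*, an enzyme that oxidises 5-methylcytosine (5mC). The genes were chosen by their known roles in germ cells, at a time when earlier results of these data were known. The rule that picks their CpGs uses no methylation value. The promoter of a gene was taken as 1 kb before to 0.5 kb after each transcription start site (TSS) of its protein-coding transcripts, in the GENCODE vM1 annotation of the mouse genome build mm9. Of the 35 genes, 34 were annotated under these names, 25 had listed CpGs in a promoter, and 24 had CpGs covered by 10 or more calls in each of the 4 oxBS libraries. These 24 genes held 420 tested CpGs, out of 662455 CpGs tested in all and 13291 genes with a tested promoter CpG. *Tdrd9* had 5 listed CpGs that missed this coverage, whereas *Tdrd1*, *Piwil1*, *Piwil4*, *Mov10l1*, *Stk31*, *Syce1*, *Tex12*, *Rec8* and *Dmc1* had no listed promoter CpG, and *Tdrd5* was not matched to the annotation by its name.

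The NPCs came from A2lox.cre mouse ES cells, a line into which a doxycycline-inducible construct can be placed at a fixed site, and which was expanded on feeder cells before neural differentiation. Clones carried an inducible shRNA, either a non-targeting one (shScr) or one against *Tet3* (shTet3), and all groups received doxycycline at 2 µg/ml for 5 days, the controls included. Each shRNA had 2 replicates, and the DNA of each replicate was divided between a bisulfite library (BS), which reads 5mC and 5-hydroxymethylcytosine (5hmC) alike, and an oxidative bisulfite library (oxBS), which reads 5mC alone, giving 8 libraries. A single shRNA against *Tet3* is named in the labels, so an effect of its sequence cannot be told apart from that of *Tet3* loss, and nothing in the labels says whether replicates came from separate clones or cultures, so that p-values may measure technical spread.

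Germline genes are expressed in germ cells and are silenced in somatic cells, where many of their CpG-rich promoters carry dense DNA methylation that is laid down in the early embryo. Repressors such as E2F6, and MGA with MAX, bind at such promoters, and loss of promoter methylation is known to permit expression of several of these genes. Their products act in the piRNA pathway, which silences transposons, in the pairing of homologous chromosomes by the synaptonemal complex, in cohesion, and in meiotic recombination.

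In oxBS libraries, 72 of the 420 CpGs (17.1%) were lower in shTet3 than in shScr and 0 were higher. A CpG was called when a likelihood ratio test on its methylated and unmethylated calls gave a q value below 0.01 (Benjamini-Hochberg over all CpGs tested) and the pooled levels differed by more than 10 percentage points. Over the whole genome, 13.9% of tested CpGs were called lower and 0.0814% higher. The called CpGs lay in 19 genes and on 33 of the 75 MspI fragments that held tested CpGs, and CpGs on 1 fragment share reads. In bulk DNA a lower level in each cell and fewer methylated cells cannot be told apart.

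The stretches below were printed for the genes with 4 or more lower CpGs, to show where such CpGs lie. Each is the stretch with the most lower CpGs, at least 3, within 100 bases, with 10 bases on either side and no overlap with an annotated untranslated region. Where stretches tied, the first by position was taken, so that other lower CpGs of a gene can lie just outside. The lower CpGs are in capitals. All were read from mm9, 5′ to 3′ on the strand of the gene. The *Piwil2* stretch, chr14:70829302-70829376 on the minus strand, is upstream of the TSS. The *Rnf17* stretch, chr14:57021473-57021517 on the plus strand, ends just before the TSS. That of *Slc25a31*, chr3:40512987-40513082 on the plus strand, is in a coding exon. Those of *Smc1b*, chr15:84962092-84962156 on the minus strand, and of *Spo11*, chr2:172805580-172805671 on the plus strand, are intronic.
Piwil2: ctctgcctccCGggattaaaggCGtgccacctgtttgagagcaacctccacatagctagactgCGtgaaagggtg
Rnf17: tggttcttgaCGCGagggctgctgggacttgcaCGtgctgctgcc
Slc25a31: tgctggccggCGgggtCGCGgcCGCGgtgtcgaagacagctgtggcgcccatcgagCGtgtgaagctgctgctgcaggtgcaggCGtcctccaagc
Smc1b: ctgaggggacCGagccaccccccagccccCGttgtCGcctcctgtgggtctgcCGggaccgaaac
Spo11: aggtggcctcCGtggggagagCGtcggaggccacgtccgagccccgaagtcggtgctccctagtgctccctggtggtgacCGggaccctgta

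Most of these promoters were methylated in control NPCs. The level of a promoter is the unweighted mean over its tested CpGs in a library, and over the 24 genes it averaged 49.6% and 64.5% in the shScr libraries, against 43.7% and 48.3% in the shTet3 libraries. Over all 13291 genes the medians lay between 0.347% and 0.686% in these libraries. Most promoters were thus unmethylated, whereas 17 of the 22 genes with at least 3 CpGs had a mean level over 40%, as did 968 of 12627 genes in all.

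**Figure D1:**
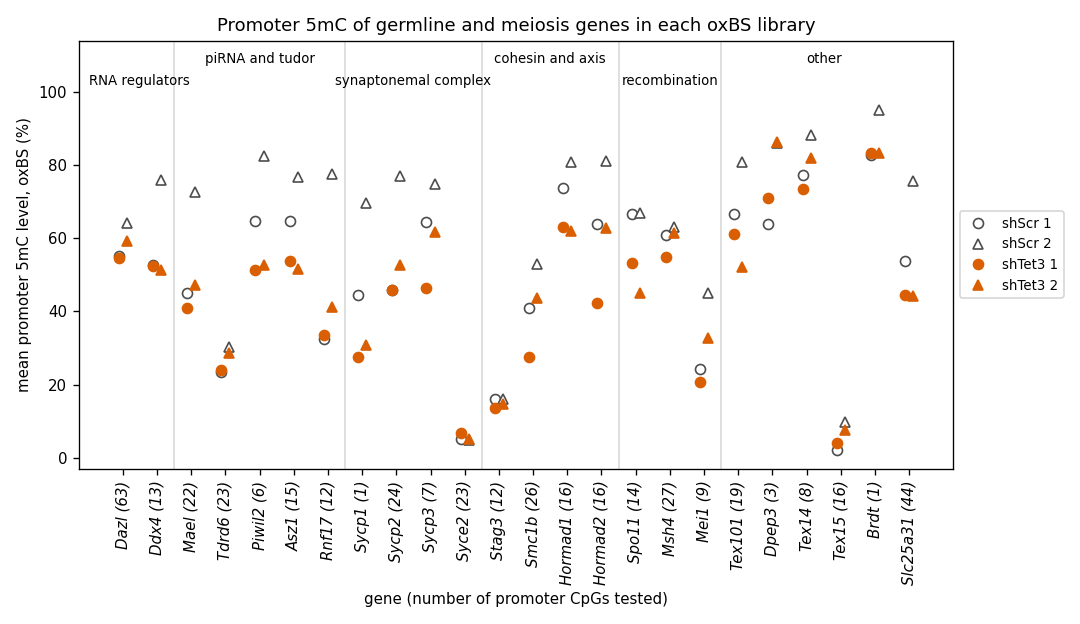
Each point is the mean promoter 5mC level (percent, oxBS) of 1 gene in 1 library, with open grey symbols for shScr, filled orange symbols for shTet3, circles for replicate 1 and triangles for replicate 2. Genes are grouped by role, with the number of tested CpGs in parentheses. In 22 of the 24 genes the triangle of shScr lies above its circle, and *Syce2*, *Tex15* and *Stag3* stay under 17% in every library.

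The difference between shTet3 and shScr, averaged over the 24 genes, was −11.01 percentage points. The variances of the shScr and shTet3 replicates, added together, gave an SD of 11.02, about the size of the difference. That SD is the spread of a difference between 1 library of each group. The spread of a difference between group means is smaller and was not computed. The replicates of shScr differed from each other by 14.9 points on average, more than the groups did. The mean difference was −18.4 without shScr replicate 1 and −3.72 without shScr replicate 2. The difference lay below 0 in 22 of the 24 genes, against 67.9% of all 13291 genes. Among genes with at least 3 CpGs and a mean level over 40%, it did so in 16 of 17 germline genes, against 98.1% of all 968. Both shTet3 libraries lay below both shScr libraries in 10 of the 22 genes with at least 3 CpGs, against 27.5% of all such genes. Among genes with a mean level over 40% this held for 9 of the 17 germline genes and for 72.1% of all 968. The median difference was −14.8 points in these 17 genes and −15.3 in the 968, so the germline value was close to that of methylated promoters in general.

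Promoters of pluripotency and neural precursor genes were read in the same libraries. Of 7 pluripotency genes 5 had tested CpGs, and their promoters averaged 38.9% and 43.8% in shScr against 29.5% and 31.3% in shTet3. Their mean difference of −10.99 points was close to the germline mean, but single genes ranged from −27.4 to 0.288. The median was −8.27 points, against −12.3 in the germline genes. Of the 32 CpGs 3 were lower (9.38%, against 17.1% of germline CpGs). Of 6 neural precursor genes 4 had tested CpGs, and their promoters averaged 14.3% and 8.94% in shScr, and 9.01% and 9.23% in shTet3, with 3 of 114 CpGs lower. Whether the share of pluripotent cells differed between the groups, and its part in the germline differences, was not tested. No expression data were analysed here, so the cell type label was set only against promoter methylation.

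*Dazl* and *Ddx4* encode RNA regulators that germ cells need for their development, an RNA-binding protein and a helicase. The *Dazl* promoter, with 63 tested CpGs the most of any, stood at 55.2% and 64.02% in shScr and at 54.5% and 59.3% in shTet3, so that the groups overlapped, and 2 CpGs were lower. The *Ddx4* promoter stood at 52.7% and 76.0% in shScr against 52.4% and 51.3% in shTet3. Its groups did not overlap, but shScr replicate 1 lay close to both shTet3 libraries, and 1 of 13 CpGs was lower.

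At *Dazl* the methylation level differed between 2 sides of the promoter. Up to 451 bases downstream of the first TSS, 36 CpGs averaged 85.1% and 91.5% in shScr against 84.2% and 86.7% in shTet3. From 470 to 810 bases downstream, around the second annotated TSS, 27 CpGs averaged 15.3% and 27.4% in shScr against 15.05% and 22.7% in shTet3. The first CpG of the second side, at 470 bases, was read at 45.5% and 55.3% in shScr, between the averages of the sides. In shTet3 it was read at 16.7% and 30.6%. Each side held 1 lower CpG. The stretch around it, chr17:50432412-50432572 on the minus strand, is intronic in the longer transcript, and the 5 CpGs of the methylated side are in capitals.
Dazl: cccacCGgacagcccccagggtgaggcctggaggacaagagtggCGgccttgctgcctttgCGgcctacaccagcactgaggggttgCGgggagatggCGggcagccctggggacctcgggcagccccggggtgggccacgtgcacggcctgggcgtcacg

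Of the piRNA pathway and tudor domain genes, 5 had tested CpGs, and 17 of their 78 CpGs were lower. *Piwil2* encodes a PIWI protein that binds piRNAs in fetal germ cells. Its promoter stood at 64.7% and 82.6% in shScr and at 51.3% and 52.6% in shTet3, and 5 of its 6 CpGs were lower, 3 of them in the stretch printed above. The groups did not overlap. At *Asz1*, a protein of the germ granules between mitochondria, 4 of 15 CpGs were lower, with promoter levels of 64.6% and 76.8% in shScr against 53.7% and 51.6% in shTet3. *Rnf17*, a tudor protein of germ granules, had 5 of 12 CpGs lower, but its levels were 32.5% and 77.4% in shScr against 33.5% and 41.2% in shTet3. The shTet3 promoter levels there lay above that of shScr replicate 1, and shScr replicate 2 was the highest at each of the 12 CpGs. Without shScr replicate 2, 0 of the 12 *Rnf17* CpGs were lower, and without shTet3 replicate 1, 1 was. In the printed *Rnf17* stretch the 3 lower CpGs averaged 26.8% and 81.3% in shScr against 21.3% and 33.8% in shTet3.

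*Mael*, which acts in piRNA-directed silencing, had levels of 45.0% and 72.7% in shScr against 40.8% and 47.3% in shTet3, which overlapped, and 1 of 22 CpGs was lower. *Tdrd6*, a tudor protein of the chromatoid body, stood at 23.5% and 30.4% against 23.9% and 28.7%. Its levels overlapped too. Yet 2 of its 23 CpGs, at −125 and −202 relative to the TSS, were lower, with differences of −27.3 and −25.4 points, of which both were also called without shScr replicate 2 and neither when any 1 of the other 3 libraries was left out.

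Of the synaptonemal complex genes, 4 had tested CpGs and 10 of 55 CpGs were lower. *Sycp2* and *Sycp3* encode proteins of the lateral element and *Sycp1* the transverse filament. The *Sycp2* promoter had 7 of 24 CpGs lower, with levels of 45.8% and 77.0% in shScr against 45.8% and 52.8% in shTet3, so shScr replicate 1 lay level with shTet3 replicate 1. *Sycp3* stood at 64.5% and 74.9% in shScr and at 46.3% and 61.7% in shTet3, with 2 of 7 CpGs lower and no overlap. The only *Sycp1* CpG tested, at −599 relative to the TSS, was read at 44.3% (95% Wilson interval 39.0 to 49.8, 327 calls) and 69.6% (61.0 to 77.0, 125 calls) in shScr. It was read at 27.5% (21.0 to 35.0, 153 calls) and 30.8% (24.1 to 38.4, 156 calls) in shTet3. These intervals cover counting error only, and the intervals of the 2 shScr libraries did not overlap each other. *Syce2*, of the central element, stayed between 4.86% and 6.87% in the 4 libraries, with 0 of 23 CpGs called.

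Among the genes of meiotic cohesin and the chromosome axis, 14 of 70 CpGs were lower. *Hormad1* and *Hormad2* are axis proteins that monitor synapsis. *Hormad2* stood at 63.8% and 81.0% in shScr and at 42.3% and 62.7% in shTet3, with 7 of 16 CpGs lower, all within 84 bases downstream of the first TSS. *Hormad1* stood at 73.8% and 80.9% against 63.1% and 62.1%, with 3 of 16 CpGs lower. In both genes the groups did not overlap, but in *Hormad2* shScr replicate 1 lay close to shTet3 replicate 2. The cohesin subunit *Smc1b* stood at 40.9% and 52.9% in shScr and at 27.5% and 43.8% in shTet3, which overlapped. Its 4 lower CpGs lie next to each other in the intronic stretch printed above, where they averaged 79.6% and 74.7% in shScr against 46.6% and 50.4% in shTet3, and of these calls 3 held without shScr replicate 2, 3 without shTet3 replicate 2, 2 without shTet3 replicate 1 and 1 without shScr replicate 1. All 26 *Smc1b* CpGs lie in the promoter of the divergent gene *Ribc2* as well. *Stag3*, another cohesin subunit, stayed between 13.7% and 16.2% and had no call among 12 CpGs, of which 10 lie in another gene's promoter as well. Its groups did not overlap, with a difference of −2.01 points.

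Of the recombination genes, *Spo11* encodes the enzyme that makes meiotic double-strand breaks. Its levels were 66.6% and 66.9% in shScr against 53.2% and 45.0% in shTet3, and 5 of 14 CpGs were lower. The groups did not overlap, and the shScr replicates differed by 0.344 points in oxBS but by 10.1 points in BS. Of the 5 calls, 1 held without shScr replicate 2, 2 without shTet3 replicate 2 and 3 without shTet3 replicate 1. In the *Spo11* stretch printed above the 3 lower CpGs averaged 76.9% and 83.7% in shScr against 64.1% and 46.7% in shTet3. *Msh4*, which stabilises crossover intermediates, had 3 of 27 CpGs lower and levels of 60.7% and 62.9% against 54.9% and 61.5%, which overlapped. *Mei1*, needed for break formation, stood at 24.4% and 44.9% in shScr and at 20.8% and 32.8% in shTet3, with 1 of 9 CpGs lower.

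*Slc25a31*, the germ cell ADP/ATP carrier of mitochondria, had the most calls, with 15 of 44 CpGs lower on 3 MspI fragments. Its promoter stood at 53.7% and 75.7% in shScr and at 44.6% and 44.3% in shTet3. The 7 lower CpGs of the coding stretch printed above averaged 66.0% and 84.8% in shScr against 43.0% and 32.5% in shTet3. The CpG 226 bases downstream of the TSS had the largest difference of all, −47.9 points, at 65.1% and 76.9% in shScr against 24.1% and 19.4% in shTet3 with 26 to 43 calls each. Without shScr replicate 2, 3 *Slc25a31* CpGs were lower, and 11 to 23 without any 1 of the other libraries. *Tex101*, a surface protein of germ cells, had 3 of 19 CpGs lower, at 66.6% and 80.8% against 61.2% and 52.2%. Neither gene's groups overlapped. *Tex14*, of the intercellular bridges, had 1 of 8 CpGs lower, at 77.2% and 88.2% against 73.3% and 81.8%, and its CpGs lie in the promoter of *Rad51c* as well.

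The other tested genes had no call. *Tex15*, a piRNA factor, ranged from 2.00% to 9.89% over the 4 libraries. *Dpep3*, a membrane dipeptidase of spermatocytes with 3 CpGs, ranged from 63.9% to 86.2%. *Brdt*, a testis bromodomain protein with 1 CpG, ranged from 82.6% to 95%.

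**Figure D2:**
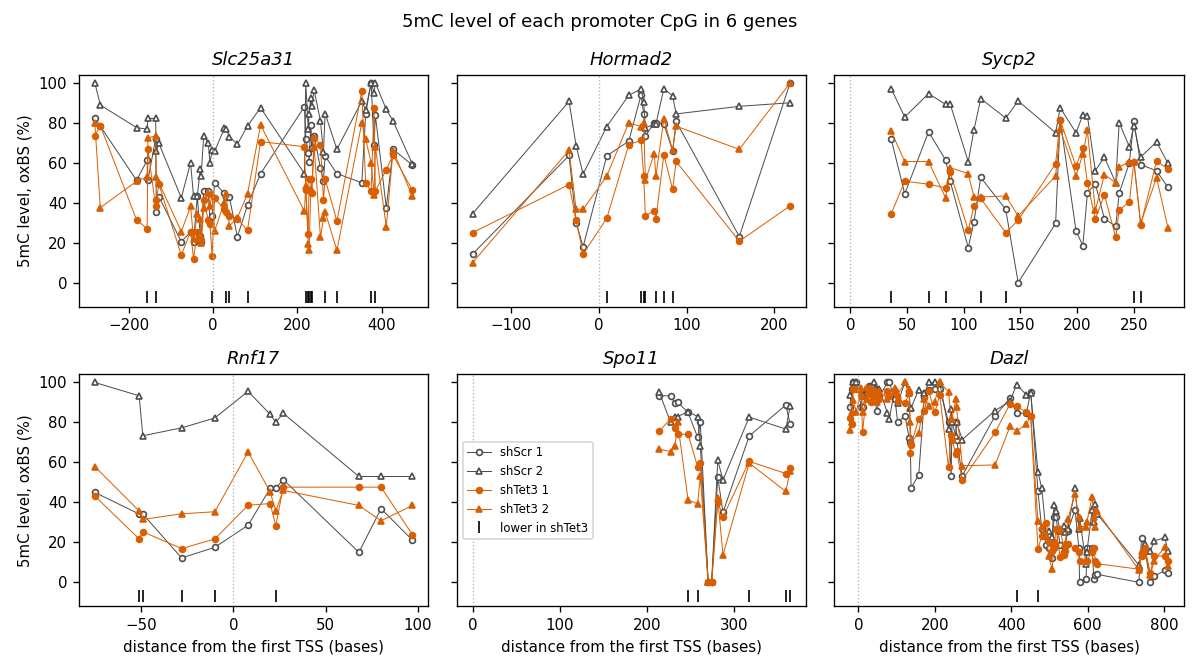
The 5mC level (percent, oxBS) of each tested promoter CpG is plotted against its distance in bases from the first annotated TSS (dotted line), with symbols for the 4 libraries as before and ticks at the bottom for CpGs called lower in shTet3. In *Slc25a31* and *Hormad2* the calls fall in clusters, and in *Rnf17* shScr replicate 2 lies above the other 3 libraries. In *Dazl* all 4 libraries average lower from 470 bases on than up to 451 bases.

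Genes with several calls were common in this group. At least 3 lower CpGs were found in 11 of the 22 genes with at least 3 CpGs, namely *Piwil2*, *Asz1*, *Rnf17*, *Sycp2*, *Smc1b*, *Hormad1*, *Hormad2*, *Spo11*, *Msh4*, *Tex101* and *Slc25a31*, against 6.68% of all such genes. All 11 had a mean level over 40%, where they made up 11 of 17 germline genes against 35.5% of all 968. The germline genes of this class also had more tested CpGs, a median of 16 against 6, and so more chances of 3 calls. The 11 genes became 2 without shScr replicate 2 (*Slc25a31* and *Smc1b*), 4 without shTet3 replicate 1 (*Asz1*, *Piwil2*, *Slc25a31* and *Spo11*), 8 without shTet3 replicate 2 and 13 without shScr replicate 1.

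Counted over CpGs, the share of calls went with the methylation level. Of germline CpGs with a mean level over 40%, 65 of 279 (23.3%) were lower, against 28.9% of all promoter CpGs at such levels. Of those at up to 40%, 7 of 141 (4.96%) were lower. Over all promoter CpGs, most of which were unmethylated, the share was 2.00%, those over 40% included. Among all promoter CpGs at up to 40% it was therefore below 2.00%, and so below the germline share of 4.96%. It was not computed on its own, and levels within that class were not matched. Lower CpGs were found in every part of the promoters, with 22 of 124 CpGs upstream of the gene, 18 of 85 in untranslated exons, 14 of 81 in coding exons and 18 of 130 in introns.

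At 58 of the 72 lower CpGs (80.6%) both shTet3 libraries lay below both shScr libraries, against 91.9% of the lower CpGs of the whole genome. Over all 420 germline CpGs this held at 141, and both shTet3 libraries lay above both shScr libraries at 19. These counts were not made over all tested CpGs, so there is no share to read them against. The median difference of the 72 was −26.8 points, and their coverage per library ran from 14 to 327 calls. Of all 420 CpGs, shScr replicate 2 lay above shScr replicate 1 at 334. Compared with shScr replicate 2 alone, the shTet3 libraries were lower at 357 and 335 CpGs, and compared with shScr replicate 1 at 253 and 199. Leaving out shScr replicate 2 left 16 of 431 CpGs lower (3.71%, against 5.79% of all CpGs), of which 15 were among the 72, and 7 CpGs became higher, 3 of them in *Dazl*. The mean difference over the 24 genes was −18.4 points without shScr replicate 1 and −8.51 points without shTet3 replicate 1. When the test allowed for overdispersion (F test), 0 of all 662455 CpGs passed, and so 0 germline CpGs. With 2 replicates against 2 this test has so few degrees of freedom that hardly any CpG can pass the adjustment. Its 0 therefore decides nothing about these CpGs. At an unadjusted p under 0.05 the F test found 5 germline CpGs lower and 0 higher, which was not counted over all CpGs.

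**Figure D3:**
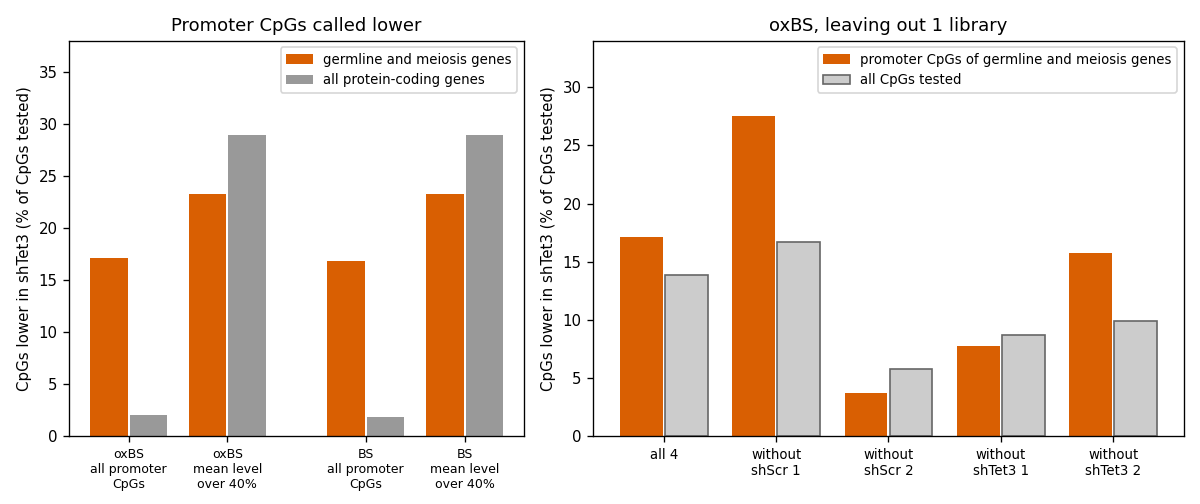
Left, percent of tested promoter CpGs called lower in shTet3 for the germline and meiosis genes (orange) and for all protein-coding genes (grey), over all promoter CpGs and over those with a mean level over 40%, in oxBS and BS libraries. Right, percent of CpGs called lower in oxBS with all 4 libraries and without each of them, for germline promoter CpGs (orange) and all CpGs tested (light grey). Germline CpGs exceed all promoter CpGs (17.1% against 2.00%) but not those over 40% (23.3% against 28.9%), and their share falls to 3.71% without shScr replicate 2.

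A test whose error is the spread between replicates was run with limma on the log2 ratio of methylated to unmethylated calls, over the 12627 genes with at least 3 CpGs. It called 0 of the 22 germline genes, and 0% of all genes passed an adjusted p of 0.05. At an unadjusted p under 0.05 it found 0 germline genes and 677 genes in all. The log2 ratio was below 0 in 20 of the 22. That share was not counted for all genes, but their difference in percentage points was below 0 in 67.3%. The smallest p among them was that of *Hormad1*, with a log2 ratio of −1.24 ± 0.56 (SE) between the groups (limma, adjusted p = 0.823). With 2 replicates against 2, an exact permutation test cannot give a p below 0.33.

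The BS libraries, made from the other part of the same DNA, gave similar totals. In them 68 of 405 germline CpGs (16.8%) were lower and 0 higher, against 13.8% and 0.0621% of all CpGs and 1.86% of promoter CpGs. Over a mean level of 40%, 60 of 258 (23.3%) were lower, against 28.9% of all promoter CpGs. Over 23 genes the levels were 48.2% and 63.6% in shScr against 43.3% and 46.7% in shTet3. The mean difference was −10.9 points, with an SD of 11.1 from the added variances of both pairs of replicates. It was −19.5 without shScr replicate 1 and −3.59 without shScr replicate 2. Both shTet3 libraries lay below both shScr libraries in 11 of 22 genes, against 29.3% of all genes with at least 3 CpGs. Over 40% this held for 10 of 17, against 73.7%, and 10 of 17 had at least 3 lower CpGs, against 34.6%. limma called 0 of the 22 genes and 0% of all genes, with 1 germline gene, *Hormad2*, and 673 genes at an unadjusted p under 0.05.

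The CpGs that were called differed more. Of the 72 CpGs lower in oxBS, 70 were tested in BS, where 64 had a difference below 0 and 21 were called. Their median difference was −13.9 points in BS. None of the 7 CpGs of the *Slc25a31* stretch was called in BS, with differences from −15.3 to 6.48 points. *Mael*, with 1 lower CpG in oxBS, had 12 of 22 in BS, at 41.8% and 72.0% in shScr against 33.4% and 44.8% in shTet3. Its groups overlapped in BS as well, since shTet3 replicate 2 lay above shScr replicate 1, and shScr replicate 2 was the highest. Over the member genes, the mean difference in BS was −3.59 points without shScr replicate 2 and −8.94 points without shTet3 replicate 1.

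**Figure D4:**
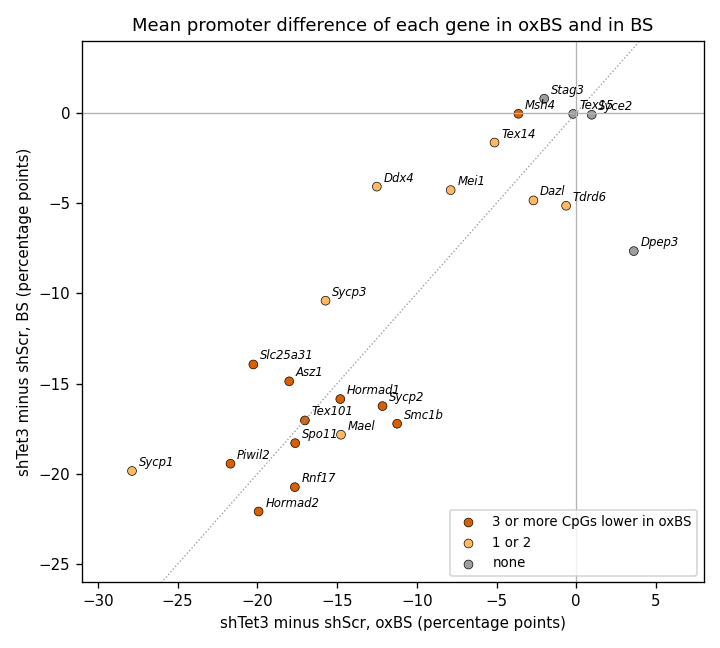
Difference of the mean promoter level (shTet3 minus shScr, percentage points) in oxBS on the x axis and in BS on the y axis, 1 point a gene for the 23 genes tested in both, with equal differences on the dotted line. Colours give the number of CpGs lower in oxBS. The genes with 3 or more lower CpGs lie at differences of −11 points or less in both, except *Msh4* at −3.63 and −0.0521, and *Dpep3* and *Syce2* are above 0 in oxBS only.

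Few germline CpGs were called different between BS and oxBS, whose difference estimates 5hmC. In shScr, 0 of 415 germline CpGs had BS above oxBS and 1 had it below, which 5hmC cannot give, against 0.33% and 0.170% of all CpGs. In shTet3, 1 of 415 was above and 0 below, against 0.0239% and 0.0141%. Among the germline CpGs of shScr, 47 were above and 31 below at an unadjusted p under 0.05, and the F test gave 0 and 1. These counts were not made over all CpGs, so no share can be set beside them. Averaged over genes, BS minus oxBS was −0.490 and −0.0928 points in shScr, and 1.21 and −0.909 points in shTet3. The means were −0.292 ± 0.281 (SD, n = 2) in shScr, just larger than the spread between replicates and below 0, and 0.149 ± 1.496 (SD, n = 2) in shTet3. Single genes ranged from −8.23 to 7.88 points in shScr and from −9.84 to 5.78 in shTet3. Leaving out 1 library breaks the balance between BS and oxBS. Germline CpGs with BS above oxBS in shScr then numbered 33 without oxBS replicate 2 (7.93%, against 3.11% of all CpGs), 15 without BS replicate 1 (3.61%, against 1.82%) and 1 without BS replicate 2 (0.233%, against 0.535%). In shTet3 they numbered 4 without oxBS replicate 2 (0.959%, against 0.25%). The call in shTet3 was a *Sycp2* CpG at chr2:178142134, read at 28.8% and 29.7% in oxBS and at 72.2% and 51.2% in BS. The call in shScr was a *Slc25a31* CpG at chr3:40513152, read at 100% in both oxBS libraries and at 70.8% and 61.5% in BS. Both CpGs are among the 72 that were lower in oxBS and neither was called in BS.

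Sequence features that did not enter the choice of genes were counted in the promoters. The letters CACGTG, the E-box of MGA and MAX, were present on either strand in a promoter of 24 of 34 genes (70.6%), against 28.2% of 22215 protein-coding genes. In the 300 bases from 250 before to 50 after a TSS, 18 of 34 (52.9%) had them, against 10.7%. The letters TCCCGC, bound by E2F6, were in 21 of 34 (61.8%) against 55.5%, and in the 300 bases in 16 (47.1%) against 31.8%. Of the genes with tested CpGs, 17 of 24 germline genes (70.8%) held TCCCGC in a promoter, against 76.9% of all, and 14 (58.3%) in the 300 bases, against 46.5%. The motifs can share at most 1 base. Of the 24 genes with tested CpGs, 18 (75.0%) held CACGTG, against 34.5% of the 13290 genes with tested CpGs and a promoter sequence. The median ratio of observed to expected CpG was 0.511 in the 34 promoters and 0.454 in all, but 0.560 in the 24 with tested CpGs and 0.599 in all genes with tested CpGs.

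Other germline genes, from a list of 43, had fewer calls. Of the 431 tested CpGs of 23 such genes 25 (5.80%) were lower and 0 higher, and many of these promoters were unmethylated. The most calls were at *Fkbp6*, a piRNA cofactor, where 18 of 25 CpGs were lower and levels were 83.8% and 84.5% in shScr against 59.7% and 68.4% in shTet3, with no overlap. *Stra8*, which starts meiosis, had 4 of 6 CpGs lower, at 84.4% and 93.0% against 59.3% and 84.9%. *Sohlh2*, *Taf7l* and *Cyct* had 1 lower CpG each. Among 11 repressors of germline genes, 10 of 405 CpGs were lower, 7 of them in *Ehmt2*, a histone methyltransferase, at 21.1% and 24.9% against 18.1% and 19.5%. The others were 2 CpGs of *L3mbtl2* and 1 of *Max*, the DNA-binding partner of MGA.

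Sequencing depth was similar over the series, with 42516767 to 61865967 calls per library and a median coverage of 41 to 53 at the germline CpGs in each library. The mean 5mC level of all CpGs tested was 27.2% and 32.3% in the oxBS libraries of shScr and 22.7% and 22.9% in those of shTet3, so shScr replicate 2 was the highest genome-wide as well. Its part in the germline differences was not tested beyond leaving it out.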

How the data were processed

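oxRRBS libraries (oxidative Reduced Representation Bisulfite Sequencing, MspI digestion of 100 ng of DNA) of 2 shScr and 2 shTet3 replicates, BS and oxBS, were used, 8 in all. The authors trimmed, aligned and called the reads with tools that their processing notes name as Trim Galore, Bismark and methylKit (mm9). The deposited values of a CpG are its coverage, an unnormalized whole-number count, and 2 columns with the percent of its calls that were C or T. Methylated counts were recovered as percent times coverage. The files list 757812 shared CpGs, with 5 calls or more, and all lie at the C of a CG in mm9. Reads were amplified without molecular identifiers and may be copies, so tests on counts and Wilson intervals (95%) cover counting error only. Oxidation spike-ins were not analysed here.

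CpGs covered by 10 or more calls in each of the 4 libraries of a comparison were tested with a logistic model and its likelihood ratio, computed directly from the counts in place of methylKit (Python 3.11.15, scipy 1.17.1), with Benjamini-Hochberg adjustment over all CpGs. Genes were tested with limma 3.58.1 (trend, offset of 1). Both were also run on simulated counts. Those for CpGs held no spread between replicates, and those for genes held a larger change than any germline gene showed. They therefore cannot show how the tests perform on these data. Overlapping promoters were kept, so genes with a shared promoter are counted separately. Each BS library is paired with the oxBS library made from its DNA. Deviations from the group mean of such pairs correlated with r = 0.508 (shScr) and 0.246 (shTet3) over all CpGs.

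The genes and lists were chosen with earlier results of these data known. Every gene is named, with levels per library where a CpG was called. Of other germline genes the 5 with the most calls are named, and of the repressors those with a call. Alternatives were other coverage limits, wider promoters, other tests, other weightings, a replicate block and leaving out each library.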

Additional observations from a re-analysis of the deposited data

How the results depend on the processing

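Germline CpGs lower in shTet3 numbered 72 in oxBS and 68 in BS. They numbered 47 and 42 with a limit of 25 points on the difference. The F test corrected for overdispersion called 0 of all 662455 (oxBS) and 0 of all 659124 (BS) CpGs. With 2 replicates against 2 hardly any CpG can pass it after adjustment, so its count of 0 decides nothing. The lower germline CpGs thus numbered 0 and 0 with that test. Without 1 library they ranged from 16 to 116 in oxBS and from 11 to 101 in BS, lowest without shScr replicate 2. CpGs higher in shTet3 in oxBS numbered 0, but 1 with a minimum coverage of 20, 2 with the replicate block, and 0 to 7 without 1 library. CpGs with BS above oxBS ranged from 0 to 33 in shScr and from 0 to 4 in shTet3 without 1 library, where BS and oxBS are no longer of the same DNA in equal parts, and the F test gave 0 in shTet3. The cause of the other changes was not tested. The count of genes called by limma was 0 under all 13 alternatives, and the mean difference kept its sign, ranging from −18.4 to −3.72 (oxBS) and from −19.5 to −3.59 (BS) without 1 library. Same-numbered shScr and shTet3 libraries share only a number as far as the labels say, and their deviations from the group means correlated with r = −0.0361 over all CpGs in oxBS. With the replicate block, 72 CpGs were lower in oxBS and 78 in BS, and limma called 0 genes. The paired differences averaged −5.87 points for number 1 and −16.2 for number 2 in oxBS. Coverage of 41 to 53 calls, with 2 replicates, limits what single CpGs can show.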
